A study of Mus musculus with 12 samples.

Results

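The T cell receptor (TCR) complex and its proximal signalling machinery were examined through 9 genes in regulatory T cells (Treg) of the mouse. The genes were Cd3d, Cd3e, Cd3g and Cd247, which encode the CD3 chains, Cd4 and Cd5, the kinase genes Lck and Zap70, and the adaptor gene Lat. They were taken by name from a list, with no use of measured values, and all 9 were found among the 16232 genes of the in vivo table and the 24421 genes of the in vitro table. The 12 libraries of polyadenylated RNA fall into 6 groups of 2. These were Kdm2b conditional knockout (cKO) and wild-type (WT) Treg in vivo, cKO Treg stimulated and unstimulated in vitro, and WT Treg stimulated and unstimulated in vitro. All came from spleen and lymph nodes. Kdm2b encodes a histone demethylase that is also part of a Polycomb complex. The Cre driver, the age of the mice, the sort and the stimulus are not given in the labels used here. The labels do not say that libraries of 1 group came from separate animals or cultures, so p-values measure only the spread between these libraries, which may be technical.

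The TCR itself has no signalling domain, and the CD3 chains carry its signal into the cell through tyrosine motifs in their tails. When the receptor meets its ligand, the coreceptor CD4 brings the kinase LCK to the complex, LCK phosphorylates the CD3 tails, and the kinase ZAP70 binds them and phosphorylates the adaptor LAT. LAT is the scaffold on which the downstream signalling enzymes gather. CD5 is a membrane protein that dampens TCR signals, and its surface level is known to follow the strength of those signals. Since T cells carry this machinery and other blood cells mostly lack it, the same genes also measure how much of a library comes from T cells.

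The promoters of 5 of the genes are shown because Lat and Cd5 were the members called in a comparison, and because Cd3e, Cd3d and Cd3g lie side by side. Each sequence is the 250 bases before the start of the gene, 5′ to 3′ on the gene's strand, from RefSeq on GRCm38.p6. The windows are chr7:126369569-126369818 (minus strand) for Lat, chr19:10738975-10739224 (minus) for Cd5, chr9:45009612-45009861 (minus) for Cd3e, chr9:44981536-44981785 (plus) for Cd3d and chr9:44980432-44980681 (minus) for Cd3g. Capitals mark AGGAAG or its reverse complement CTTCCT, a core of sites for ETS factors, which are known to act at many T cell genes.
Lat: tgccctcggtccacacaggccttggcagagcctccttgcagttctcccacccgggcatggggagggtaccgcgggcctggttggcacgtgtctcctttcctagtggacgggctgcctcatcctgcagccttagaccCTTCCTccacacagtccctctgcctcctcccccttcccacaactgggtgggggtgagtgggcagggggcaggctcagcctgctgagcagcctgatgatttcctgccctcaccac
Cd5: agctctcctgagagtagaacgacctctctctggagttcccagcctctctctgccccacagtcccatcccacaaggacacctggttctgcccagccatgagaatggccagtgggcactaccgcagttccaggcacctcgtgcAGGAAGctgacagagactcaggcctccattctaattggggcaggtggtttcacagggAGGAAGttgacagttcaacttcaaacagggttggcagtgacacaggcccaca
Cd3e: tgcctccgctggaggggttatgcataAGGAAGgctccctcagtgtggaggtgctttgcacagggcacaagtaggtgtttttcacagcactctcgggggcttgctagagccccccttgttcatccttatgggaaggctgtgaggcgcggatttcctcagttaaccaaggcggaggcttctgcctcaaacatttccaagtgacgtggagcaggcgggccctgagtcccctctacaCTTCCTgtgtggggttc
Cd3d: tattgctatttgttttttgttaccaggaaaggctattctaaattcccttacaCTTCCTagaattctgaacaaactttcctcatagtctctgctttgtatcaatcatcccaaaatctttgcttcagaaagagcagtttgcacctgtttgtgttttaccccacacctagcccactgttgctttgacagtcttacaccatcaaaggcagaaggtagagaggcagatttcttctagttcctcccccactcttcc
Cd3g: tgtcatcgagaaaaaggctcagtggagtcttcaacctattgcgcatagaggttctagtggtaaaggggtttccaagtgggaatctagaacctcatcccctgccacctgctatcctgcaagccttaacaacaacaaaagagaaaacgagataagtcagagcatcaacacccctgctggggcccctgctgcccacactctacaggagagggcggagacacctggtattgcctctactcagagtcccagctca

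The motif AGGAAG was found on either strand in 9 of the 11 promoter windows of the members and in 29.5% of 32851 windows of the same length. The 11 windows belong to 8 genes, with 3 for Zap70 and 2 for Lck, and 7 of the 8 genes had a match in at least 1 window. Cd4 has no entry. The Cd3g window shown had no match. TGTGGT, the core of RUNX sites, was in 2 of the 11 windows, those of Lck and Zap70, and in 14.0% of all windows. The longer ETS form CCGGAAGT and the E box CAGCTG were in 0 of the 11 windows, against 2.88% and 13.0% of all windows. These are matches of letters in a window and say nothing of binding.

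In the GENCODE annotation of GRCm38, Cd3g (chr9:44969572-44980431, minus strand), Cd3d (chr9:44981786-44987339, plus) and Cd3e (chr9:44998740-45009627, minus) lie within 40056 bases of chromosome 9. Cd3g and Cd3d point away from each other, with starts 1355 bases apart. The other members are on other chromosomes: Cd247 at chr1:165788681-165877277, Zap70 at chr1:36761798-36782818, Lck at chr4:129548344-129573641, Cd4 at chr6:124864692-124888221, Lat at chr7:126363824-126369570 and Cd5 at chr19:10717116-10739002. Cd247 shares 12124 bases with Pou2f1 on the opposite strand, and Cd3e shares 3557 bases with the antisense gene Gm48719. Whether reads were assigned by strand is not given, so reads of these pairs may not be told apart.

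Values are FPKM, fragments scaled to transcript length and to the mapped fragments of the library, so levels of different genes can be set side by side. Summed FPKM were 461753 to 475374 per library in vivo and 369720 to 438763 in vitro. How many reads lie behind them is unknown, so values carry no counting interval. Kdm2b, the targeted gene, was at 146 and 125 FPKM in the cKO libraries in vivo, against 113 and 110.38 in WT, and its log2 fold change did not pass the test in any comparison. Which part of the gene is deleted is not given in the labels used here, so this level was not used to check them. Both WT replicate 2 libraries in vitro, stimulated and unstimulated, had 13273 and 12379 genes listed at 0, while the other culture libraries had 9102 to 9857.

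The summed level of the 4 CD3 chain genes was much the same in the genotypes in vivo and lower in every culture library. It was 824 and 835 FPKM in cKO Treg in vivo, against 826 and 849.8 in WT Treg in vivo. In culture it was 459 and 421 FPKM in stimulated cKO Treg, against 584 and 604 in unstimulated cKO Treg. In WT cultures it was 433 and 441 FPKM in stimulated libraries, against 661 and 469 in unstimulated ones. Stimulated libraries thus lay below unstimulated libraries of the same genotype without overlap. Of single genes, 44.1% in cKO and 22.9% in WT were also lower on stimulation without overlap. With haemoglobin genes removed and a common sum, the nearest WT libraries were at 459 FPKM stimulated and 476 FPKM unstimulated. The tables were normalized separately, so the step between in vivo and culture was not tested. In bulk RNA, fewer T cells and less of this RNA per T cell cannot be told apart.

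**Figure D1:**
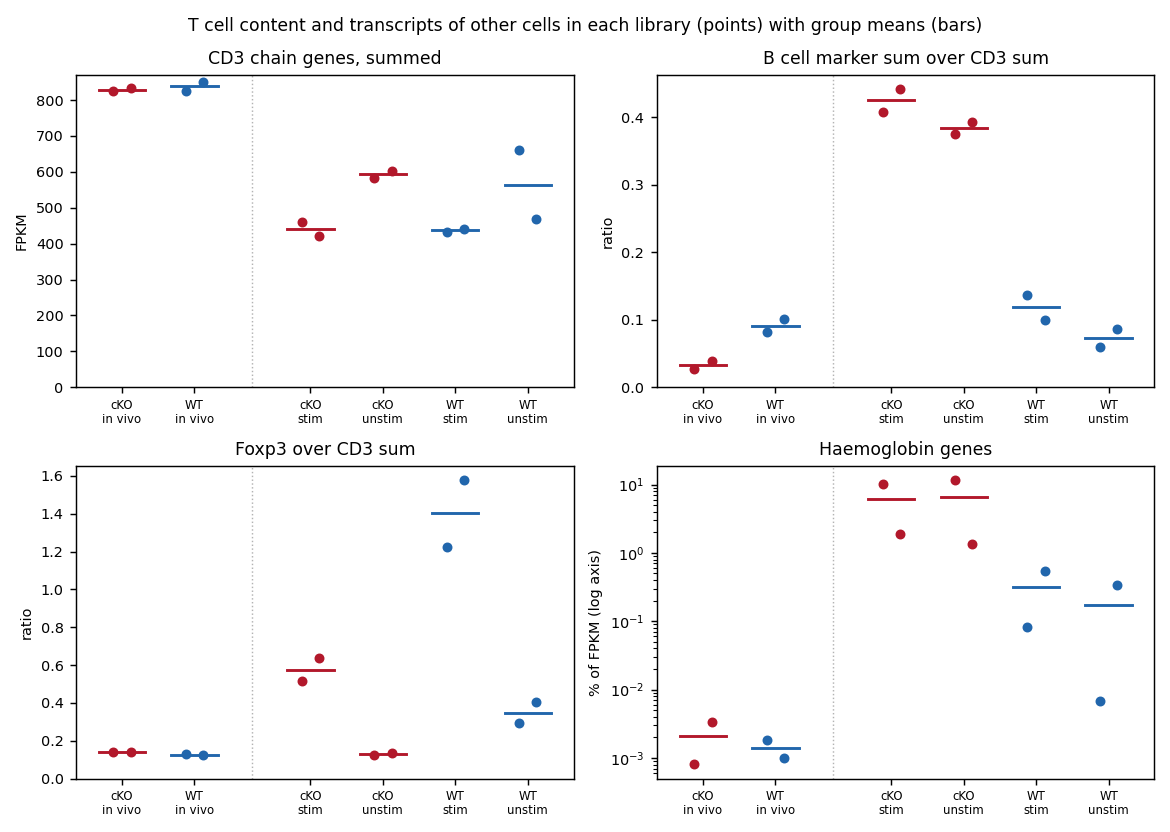
Summed FPKM of the 4 CD3 chain genes, the B cell marker sum and Foxp3 over that sum, and the share of FPKM from haemoglobin genes (log axis), for each of the 12 libraries (points) and as group means (bars); cKO is red and WT blue. The CD3 sum is 824 to 849.8 FPKM in vivo and 421 to 661 FPKM in culture, and the B cell ratio is 0.375 to 0.443 in cKO cultures, against 0.0593 to 0.137 in WT cultures.

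Transcripts of other cells differed between the genotypes beside a similar CD3 sum. The summed B cell markers, of which 13 of 15 were in the tables, were 0.0272 and 0.0382 of the CD3 sum in cKO Treg in vivo, against 0.0812 and 0.102 in WT Treg in vivo. In stimulated cultures the ratio was 0.409 and 0.443 in cKO, against 0.137 and 0.1001 in WT. In unstimulated cultures it was 0.375 and 0.393 in cKO, against 0.0593 and 0.0860 in WT. Thus the ratio was lower in cKO in vivo and higher in cKO in culture. The defining marker Cd79a was above 0 in all 12 libraries, and 3 and 1 B cell markers were at 0 in the WT replicate 2 libraries, stimulated and unstimulated. Haemoglobin genes took 10.3% and 1.86% of FPKM in stimulated and 11.6% and 1.33% in unstimulated cKO cultures, against at most 0.548% in any WT culture. The 13 myeloid markers summed to 53.8 to 213 FPKM in cKO cultures, against 26.7 to 35.2 FPKM in WT cultures. The 10 CD8 T and NK markers summed to 22.4 to 35.8 FPKM in cKO cultures, against 12.5 to 24.7 FPKM in WT cultures. These ranges overlapped, while cKO lay above WT among stimulated and among unstimulated libraries. In vivo the myeloid markers summed to 58.3 and 83.15 FPKM in cKO, against 89.7 and 87.8 FPKM in WT. The 10 CD8 T and NK markers summed in vivo to 83.1 and 90.6 FPKM in cKO, against 80.6 and 93.7 FPKM in WT. In the WT replicate 2 libraries, stimulated and unstimulated, 7 and 4 of these 10 markers were at 0. Of the 13 myeloid markers, 6 and 5 were at 0 there. The part of these cells in the values below was not tested.

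Foxp3, which encodes the transcription factor that defines Treg, is 1 of the 8 listed Treg markers. Of these 8, the cKO over WT log2 fold change was above 0 for 6 in vivo, 3 stimulated and 4 unstimulated. In vivo the 8 summed to 1955 and 1981 FPKM in cKO, against 1982 and 2095 in WT. Their sum was 1757 and 1829 FPKM in stimulated cKO, against 2277 and 2544 in stimulated WT. Unstimulated, it was 1038 and 1173 FPKM in cKO, against 1288 and 1380 in WT. Foxp3 was 0.138 and 0.140 of the CD3 sum in cKO Treg in vivo, against 0.129 and 0.125 in WT Treg in vivo. In stimulated cultures it was 0.518 and 0.635 in cKO, against 1.22 and 1.58 in WT, and in unstimulated cultures 0.122 and 0.137 in cKO, against 0.294 and 0.403 in WT. The genotypes did not overlap in any setting, with cKO slightly higher in vivo and lower in culture. By level, the genotypes did not overlap for 47.3% of genes in vivo, 48.3% stimulated and 34.5% unstimulated. The share for ratios in each setting was not computed. Foxp3 and the T cell genes were thus present in all 12 libraries. Transcripts of other cells were in every group: Cd79a was at 17.55 and 26.1 FPKM in WT Treg in vivo and 8.90 to 17.3 FPKM in WT cultures, and the haemoglobin genes summed to 2027 and 1268 FPKM in the WT replicate 2 cultures, stimulated and unstimulated.

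All 9 genes were well expressed, between 73.4 and 415 FPKM in every library. In vivo, Lat led the order, with means of 359 FPKM in cKO and 414 FPKM in WT, and no other member's range reached it. The lowest were Zap70 in cKO Treg (132 FPKM) and Cd247 in WT Treg (109.8 FPKM). In unstimulated cultures Cd5 led, with 285 FPKM in cKO and 228.5 FPKM in WT, and Zap70 was lowest, at 76.6 FPKM in cKO and 86.8 FPKM in WT. In WT the range of Cd5 overlapped that of Lat, the next below it, and the range of Zap70 that of Cd4, the next above it. In stimulated cKO cultures Cd5 still had the highest mean, 156 FPKM, but its range overlapped that of Cd247. In stimulated WT cultures the top 4 were Cd247, Lat, Lck and Cd5, each overlapping the next, between 149 and 129.9 FPKM. Lat ranked 2nd in stimulated WT cultures and 6th in stimulated cKO cultures.

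**Figure D2:**
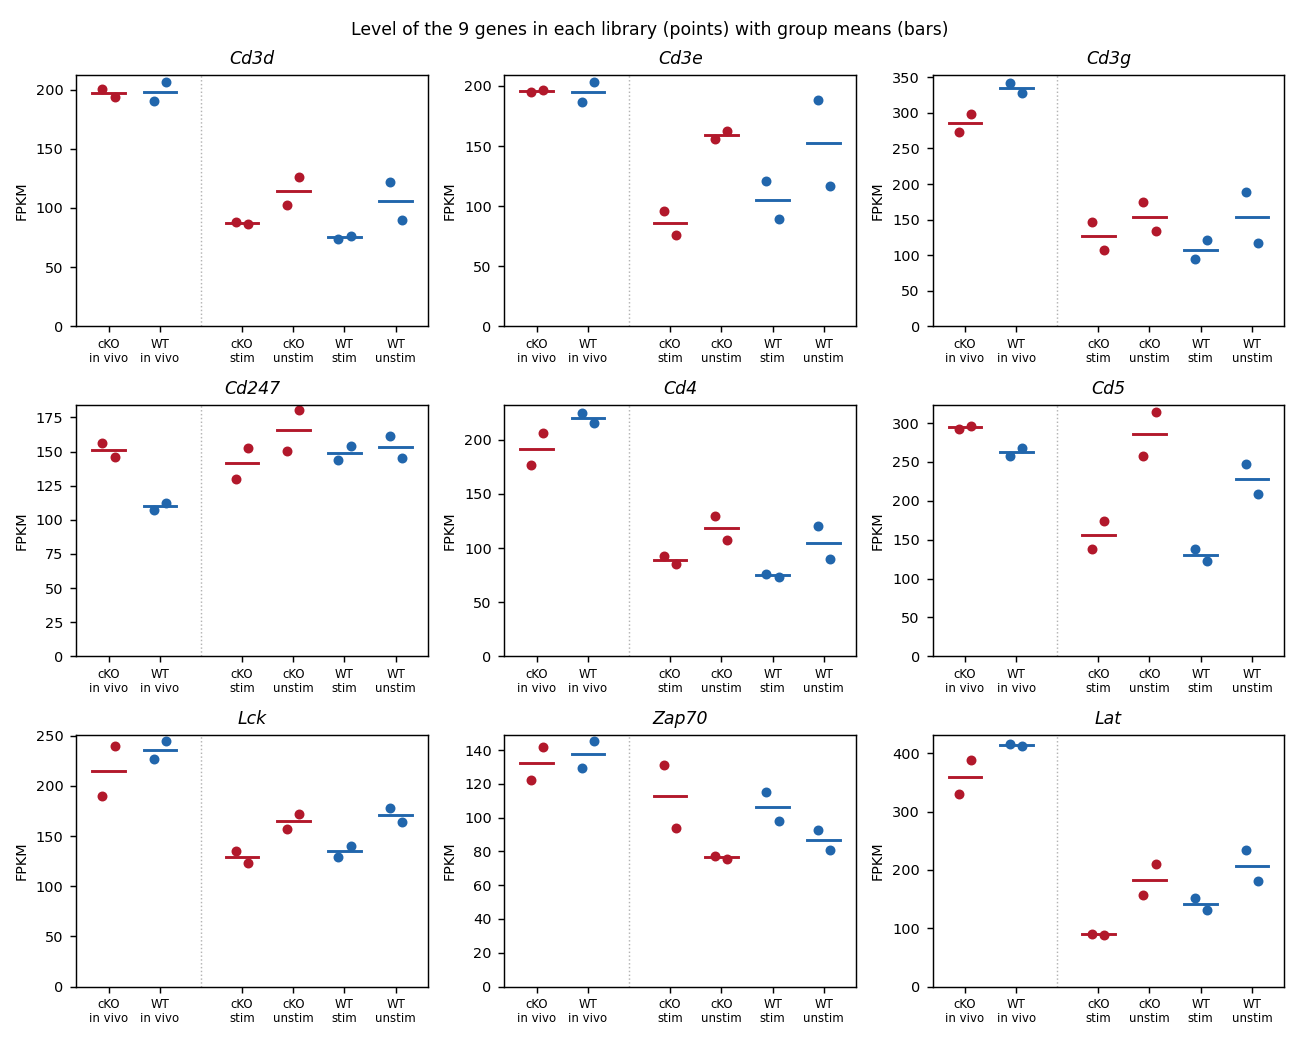
FPKM of the 9 genes in each of the 12 libraries (points, 2 a group) with group means (bars); cKO is red and WT blue, and the dotted line parts the in vivo table from the in vitro table. Stimulated libraries lie below unstimulated ones of the same genotype for Lat, Cd5, Cd3d, Cd4 and Lck, and above them for Zap70.

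The comparison of genotypes in vivo asks how Treg of the knockout differ in the animal. No member passed the test. With limma on log2(FPKM + 1), 0 of 9 members had a Benjamini-Hochberg adjusted p under 0.05, against 0.374% of 10415 genes. At an unadjusted p under 0.05, Cd247 was higher and Cd3g lower, 2 of 9 members against 13.0% of genes. The groups did not overlap for 5 members, Cd247 and Cd5 higher and Cd3g, Cd4 and Lat lower in cKO, against 47.3% of genes. The median log2 fold change was -0.06 over the members and -0.02 over all genes tested.

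Of the CD3 chains, Cd247, which encodes the zeta chain with the most signalling motifs, was at 156 and 146 FPKM in cKO Treg in vivo, against 107 and 112 FPKM in WT. Both cKO libraries lay above both WT libraries. Its log2 fold change was 0.46 (SE 0.09, adjusted p = 0.116 with limma), higher than in 96.4% of genes. Pou2f1, the overlapping gene on the other strand, was at 7.68 and 7.39 FPKM in cKO, against 8.81 and 7.70 in WT. Cd3g, the gamma chain gene, went the other way, at 273 and 299 FPKM in cKO, against 342 and 328 FPKM in WT (log2 fold change -0.23, SE 0.09, adjusted p = 0.357). Cd3d, the delta chain gene, was at 200.25 and 194 FPKM in cKO, against 191 and 206 FPKM in WT. Cd3e, the epsilon chain gene, was at 195 and 197 FPKM in cKO, against 187 and 203 FPKM in WT. For these chains the groups overlapped, and the log2 fold changes were -0.01 for Cd3d and 0.01 for Cd3e (SE 0.09 each).

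The membrane partners and the adaptor differed by less than 0.25 on the log2 scale in vivo. The coreceptor gene Cd4 was at 176 and 207 FPKM in cKO, against 225 and 216 FPKM in WT (log2 fold change -0.20, SE 0.11, adjusted p = 0.455). Cd5 was at 292 and 296 FPKM in cKO, against 258 and 267 FPKM in WT (0.16, SE 0.08, adjusted p = 0.446). Lat was at 331 and 388 FPKM in cKO, against 415 and 413 FPKM in WT (-0.21, SE 0.10, adjusted p = 0.433). The kinase genes overlapped between the genotypes: Lck ranged from 189.5 to 239 FPKM in cKO, against 227 to 245 FPKM in WT, and Zap70 from 122 to 142 FPKM in cKO, against 129 to 146 FPKM in WT. The first cKO library in the table's order was the lower of the cKO pair for every member but Cd3d and Cd247. Without the second cKO library, 5 members passed the test, Cd247 higher and Cd3g, Cd4, Lck and Lat lower; without the first, Cd247 alone passed. Over all genes, 1994 of 10368 were called without the second and 425 of 10450 without the first, against 39 of 10415 with both. In those fits the lone cKO library is assumed to vary like the WT pair.

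In culture the genotype comparison asks whether the knockout differs in the absence and presence of the stimulus. In stimulated cultures 0 of 9 members passed limma's adjusted test, against 0.0187% of 10710 genes. At an unadjusted p under 0.05, Lat alone was lower, 1 of 9 members against 14.1% of genes. The groups did not overlap for 4 members, Cd3d, Cd4 and Cd5 higher and Lat lower in cKO, against 48.3% of genes. Lat was at 90.8 and 87.9 FPKM in stimulated cKO Treg, against 152 and 131 FPKM in stimulated WT Treg. The log2 fold change was -0.65 (SE 0.19, adjusted p = 0.211), and it lay between -0.76 and -0.54 under the alternatives tried, with adjusted p from 0.150 to 1.00.

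The genes for the membrane partners had cKO values above WT values when stimulated. Cd5 was at 137.88 and 175 FPKM in cKO, against 137.87 and 122 FPKM in WT (log2 fold change 0.26, SE 0.18, adjusted p = 0.547), so that the nearest libraries were almost equal. Cd4 was at 92.6 and 85.5 FPKM in cKO, against 76.1 and 73.4 FPKM in WT (0.25, SE 0.17, adjusted p = 0.552). Cd3d was at 87.7 and 86.4 FPKM in cKO, against 73.5 and 76.6 FPKM in WT (0.21, SE 0.18, adjusted p = 0.628). For the other 5 members the stimulated genotypes overlapped, with log2 fold changes between -0.28 for Cd3e and 0.22 for Cd3g.

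In unstimulated cultures 0 of 9 members passed, against 0.0747% of genes, and 0 of 9 had an unadjusted p under 0.05, against 6.56% of genes. The groups did not overlap for 2 members, against 34.5% of genes. Cd5 was at 257 and 314 FPKM in unstimulated cKO Treg, against 248 and 209 FPKM in unstimulated WT Treg (log2 fold change 0.32, SE 0.18, adjusted p = 0.856). Zap70 was at 77.5 and 75.7 FPKM in cKO, against 92.6 and 81.0 FPKM in WT (-0.18, SE 0.18, adjusted p = 0.948). Cd3d, Cd3e, Cd3g and Cd4 took their WT values from 2 libraries that lay far apart, such as Cd3g at 189 and 118 FPKM, and without unstimulated WT replicate 2 their log2 fold changes turned to between -0.30 and -0.0322, all below 0. Over the 3 settings, Cd5 was the only member on 1 side without overlap each time, higher in cKO, as were 2.42% of 9842 genes on the higher side. In stimulated cultures this rested on 137.88 FPKM in the nearest cKO library, against 137.87 FPKM in the nearest WT library.

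**Figure D3:**
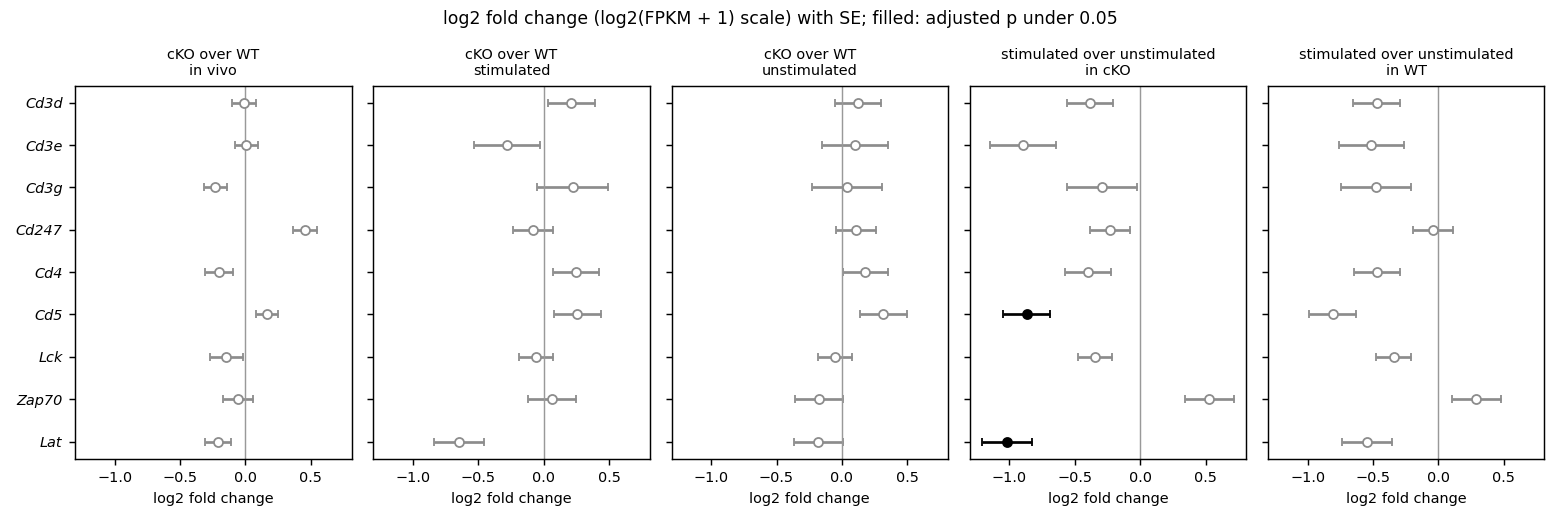
log2 fold change on the log2(FPKM + 1) scale with its SE for the 9 genes in 5 comparisons; filled points have an adjusted p under 0.05 with limma. The filled points are Cd5 (-0.87) and Lat (-1.02) in stimulated over unstimulated cKO Treg, and the in vivo fold changes lie between -0.23 and 0.46.

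Stimulation was the comparison in which members passed the test. In cKO cultures Lat and Cd5 were lower in stimulated Treg, 2 of 9 members called lower, against 2.49% of 10710 genes. In WT cultures 0 of 9 passed limma's adjusted test, against 2.43% of genes called either way, while 5 were lower at an unadjusted p under 0.05 (Cd3d, Cd4, Cd5, Lat and Lck), against 10.1% of genes. In both genotypes 8 of the 9 members had a log2 fold change below 0, against 63.3% of genes in cKO and 54.2% in WT, and Zap70 was the one above 0; under 4 rescalings Cd247 was also above 0 in WT. The median over the members was -0.38 in cKO and -0.47 in WT, and over all genes tested -0.14 in cKO and -0.04 in WT. The WT median of the members was -0.25 without unstimulated WT replicate 1 and -0.69 without unstimulated WT replicate 2.

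Lat fell to 90.8 and 87.9 FPKM in stimulated cKO Treg, against 157 and 210.1 FPKM in unstimulated cKO Treg (log2 fold change -1.02, SE 0.19, adjusted p = 0.0305). In WT it was at 152 and 131 FPKM stimulated, against 234 and 181 FPKM unstimulated (-0.55, SE 0.19, adjusted p = 0.183). Stimulated libraries lay below unstimulated ones in both genotypes, as for 17.4% of 9842 genes. The difference between the genotypes' responses was -0.47 (SE 0.27, adjusted p = 0.999), so a stronger response in cKO was not shown. In the interaction fit 0 of 9 members passed, against 0% of genes, and 0 of 9 had an unadjusted p under 0.05, against 3.55% of genes.

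Cd5 fell to 137.88 and 175 FPKM in stimulated cKO Treg, against 257 and 314 FPKM in unstimulated cKO Treg (log2 fold change -0.87, SE 0.18, adjusted p = 0.0400). In WT it was at 137.87 and 122 FPKM stimulated, against 248 and 209 FPKM unstimulated (-0.81, SE 0.18, adjusted p = 0.0626). The response had nearly the same size in the genotypes, with a difference of -0.06 (SE 0.25). The calls of Lat and Cd5 in cKO were both lost without any 1 of the 4 cKO culture libraries, without the filter on low values, where adjusted p was 0.0783 for Lat and 0.0940 for Cd5, and without the intensity trend. Over all alternatives the log2 fold change lay between -1.25 and -0.81 for Lat (adjusted p 0.0151 to 0.353) and between -1.04 and -0.70 for Cd5 (adjusted p 0.0228 to 0.506). Median-of-ratios scaling moved the median of all genes in cKO to -0.02 and turned the split of its calls to 311 higher and 153 lower, against 223 and 267 as deposited. Lat was at -0.88 (adjusted p = 0.0361) and Cd5 at -0.73 (adjusted p = 0.0586) under that scaling.

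Among the receptor chains, Cd3e was at 96.0 and 75.5 FPKM in stimulated cKO Treg, against 156 and 163 FPKM in unstimulated cKO Treg (log2 fold change -0.90, SE 0.25, adjusted p = 0.0898). In WT it was at 121 and 89.0 FPKM stimulated, against 189 and 117 FPKM unstimulated (-0.51, SE 0.25). The cKO groups were apart and the WT groups overlapped. Of all genes tested, 64.8% were apart in cKO (44.1% lower on stimulation) and 41.7% in WT (22.9% lower). Cd3e passed in cKO without either unstimulated WT library and with only the cKO libraries in the fit (adjusted p = 0.0161), with adjusted p from 0.0161 to 0.562 over the alternatives. Cd3d was at 87.7 and 86.4 FPKM in stimulated cKO Treg, against 103 and 126 FPKM in unstimulated cKO Treg (-0.38, SE 0.18). In WT, Cd3d was at 73.5 and 76.6 FPKM stimulated, against 122 and 89.4 FPKM unstimulated (-0.47, SE 0.18), again with no overlap in either genotype. Cd3g overlapped in both genotypes, with log2 fold changes of -0.29 in cKO and -0.48 in WT (SE 0.27 each). On leaving out 1 library, the WT value ranged from -0.82 to -0.14 for Cd3g and from -0.86 to -0.17 for Cd3e. Cd247 had the flattest course, at 129.7 and 153 FPKM in stimulated cKO, against 151 and 181 FPKM in unstimulated cKO, and at 144 and 154 FPKM in stimulated WT, against 161 and 145 FPKM in unstimulated WT. Its log2 fold changes were -0.23 in cKO and -0.04 in WT (SE 0.15 each).

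For the coreceptor and the kinase that it carries, the log2 fold changes of stimulation were of like size in the genotypes. Cd4 was at 92.6 and 85.5 FPKM in stimulated cKO Treg, against 129 and 107 FPKM in unstimulated cKO Treg, and at 76.1 and 73.4 FPKM in stimulated WT Treg, against 120.35 and 89.5 FPKM in unstimulated WT Treg. Lck was at 135 and 123 FPKM in stimulated cKO, against 157 and 172 FPKM in unstimulated cKO, and at 129 and 139.97 FPKM in stimulated WT, against 178 and 164 FPKM in unstimulated WT. The groups were apart in both genotypes for both genes. The log2 fold changes were -0.40 in cKO and -0.47 in WT for Cd4 (SE 0.17 each) and -0.35 in cKO and -0.34 in WT for Lck (SE 0.13 each). Zap70, the kinase that binds the phosphorylated CD3 tails, had the opposite sign. It was at 131 and 93.9 FPKM in stimulated cKO, against 77.5 and 75.7 FPKM in unstimulated cKO (0.53, SE 0.18, adjusted p = 0.148), and at 115 and 97.8 FPKM in stimulated WT, against 92.6 and 81.0 FPKM in unstimulated WT (0.29, SE 0.18, adjusted p = 0.429). In both genotypes together, 5 members (Lat, Cd5, Cd3d, Lck and Cd4) were lower without overlap, against 17.4% of 9842 genes, and Zap70 was higher, against 11.5% of genes.

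Dividing each level by the CD3 sum of its own library removes the scale of the library and the share of T cells in so far as the CD3 genes measure it. Lat was then lower in cKO without overlap in all 3 settings, as were 3.52% of 9842 genes. Cd5 over the CD3 sum was higher in cKO in vivo and overlapped in both cultures. The ratio of Lat to the CD3 sum was 0.401 and 0.465 in cKO Treg in vivo, against 0.503 and 0.486 in WT Treg in vivo. It was 0.198 and 0.209 in stimulated cKO, against 0.350 and 0.296 in stimulated WT, and 0.269 and 0.348 in unstimulated cKO, against 0.354 and 0.387 in unstimulated WT. Zap70 over the CD3 sum was 0.286 and 0.223 in stimulated cKO, against 0.133 and 0.125 in unstimulated cKO, and 0.266 and 0.222 in stimulated WT, against 0.140 and 0.173 in unstimulated WT. It was higher on stimulation in both genotypes, as were 29.9% of genes. Of the 5 members whose levels were lower in both genotypes on stimulation, Lat and Cd5 were also lower relative to the CD3 sum in both, as were 3.61% of genes. Cd3d and Cd4 were lower relative to it in WT and overlapped in cKO, and Lck was higher in cKO and overlapped in WT. Cd247 made up 0.190 and 0.175 of the CD3 sum in cKO Treg in vivo, against 0.130 and 0.132 in WT Treg in vivo, and 0.244 to 0.363 of it in the culture libraries.

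**Figure D4:**
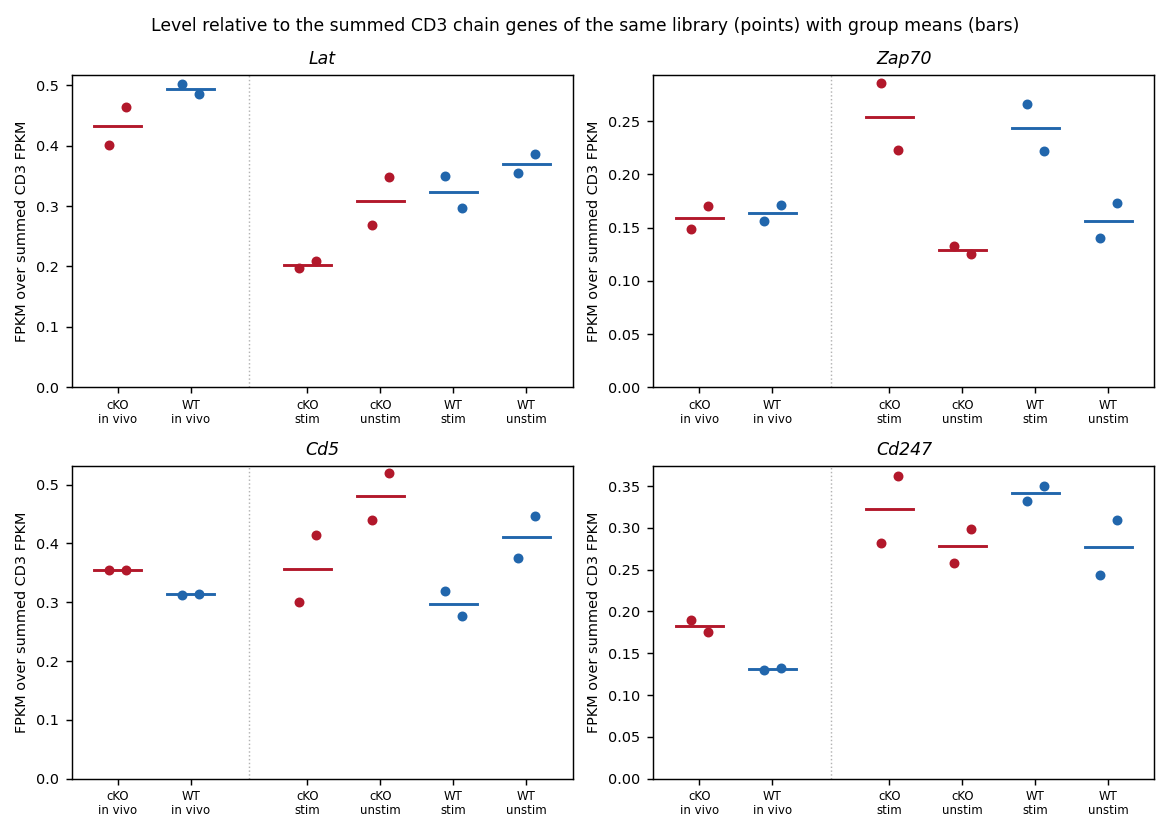
FPKM of Lat, Zap70, Cd5 and Cd247 divided by the summed FPKM of the 4 CD3 chain genes of the same library (points, 2 a group) with group means (bars); cKO is red and WT blue. The Lat ratio is lower in both cKO libraries than in both WT libraries in vivo, stimulated and unstimulated, and the Zap70 ratio is higher in stimulated than in unstimulated libraries of each genotype.

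The wider pathway was read from a list of 50 other genes, of which 47 were in the tables and tested; Trac, Trbc1 and Trbc2 were not analysed here. None of the 47 was called with limma between the genotypes in vivo, stimulated or unstimulated, where 10, 6 and 7 of them had an unadjusted p under 0.05, against 13.0%, 14.1% and 6.56% of all genes. The in vivo count was 3 without the first and 22 without the second cKO library, the fits with 425 and 1994 calls over all genes. Values that did not pass were led by Tespa1, an adaptor gene, and Trat1, which encodes a transmembrane adaptor tied to the TCR. Tespa1 differed by -0.70 in vivo on the log2 scale, cKO over WT (SE 0.12, adjusted p = 0.0771), and Trat1 by -0.82 (SE 0.16, adjusted p = 0.110). Trat1 was at 31.8 and 26.1 FPKM in cKO in vivo, against 45.2 and 59.2 FPKM in WT, and at 6.92 and 3.70 FPKM in unstimulated cKO, against 16.8 and 21.6 FPKM in unstimulated WT (log2 fold change -1.71, SE 0.34, adjusted p = 0.195). Ptpn6, which encodes the phosphatase SHP-1 found in B cells and myeloid cells too, was at 35.0 and 33.5 FPKM in unstimulated cKO, against 22.7 and 14.6 FPKM in unstimulated WT (0.87, SE 0.23, adjusted p = 0.374). In stimulated cultures the values led with Bcl10 (-0.61, SE 0.16, adjusted p = 0.171) and Grb2 (-0.45, SE 0.13, adjusted p = 0.219), which encode adaptors of the NF-kB and Ras branches.

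Stimulation changed parts of the wider pathway in opposite directions. In cKO, 11 of 47 genes were called with limma, 5 higher and 6 lower, against 4.58% of all genes, and in WT 6 of 47, 3 higher and 3 lower, against 2.43% of all genes. The lists shared 5 genes, 45.5% of those called in cKO and 83.3% of those called in WT. Among them Lcp2 and Rasgrp1 rose, and Sit1 and Ubash3a fell. Sit1 encodes an inhibitory transmembrane adaptor, and Ubash3a a suppressor of TCR signalling. Sit1 fell by 0.82 in cKO (SE 0.16, adjusted p = 0.0361) and 0.93 in WT (SE 0.16, adjusted p = 0.0290) on the log2 scale, and Ubash3a by 0.66 in cKO (SE 0.15, adjusted p = 0.0492) and 1.01 in WT (SE 0.15, adjusted p = 0.0152). Lcp2, which encodes SLP-76, the adaptor that joins LAT, was at 86.1 and 82.2 FPKM in stimulated cKO, against 42.2 and 41.8 FPKM in unstimulated cKO, and at 90.5 and 114 FPKM in stimulated WT, against 53.0 and 44.4 FPKM in unstimulated WT. Its log2 fold change was 0.98 in cKO (SE 0.16, adjusted p = 0.0186) and 1.05 in WT (SE 0.16, adjusted p = 0.0178). Rasgrp1, an activator of Ras, rose by 1.11 in cKO (SE 0.18, adjusted p = 0.0198) and 1.33 in WT (SE 0.18, adjusted p = 0.0120) on the log2 scale.

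Other calls were made in 1 genotype. In cKO, Trat1 rose by 2.14 (SE 0.34, adjusted p = 0.0179) and Cd2, an adhesion receptor gene, by 1.04 (SE 0.18, adjusted p = 0.0243), and Dgka, which encodes a diacylglycerol kinase that limits the signal, fell to 100.31 and 129 FPKM in stimulated cKO, against 208 and 258 FPKM in unstimulated cKO (-1.02, SE 0.18, adjusted p = 0.0258). Dgkz, Grb2 and Lax1 were also lower in stimulated cKO Treg with adjusted p under 0.05. In WT, Dok1, an adaptor gene that restrains signalling, fell by 1.09 on the log2 scale (SE 0.22, adjusted p = 0.0465) and was the one gene called in WT alone. The interaction passed for 0 of the 47 genes, so a difference in response between the genotypes was not shown for any of them; 0 had an unadjusted p under 0.05. The median of the 47 was -0.12 in cKO and -0.09 in WT. The counts rest on few libraries: leaving out any 1 of the 4 cKO libraries left at most 1 call in cKO, and leaving out any library but stimulated WT replicate 1 left at most 3 calls in WT. Rescaling to a common sum gave 6 higher and 1 lower in cKO, against 261 higher and 134 lower of all 10709 genes.

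**Figure D5:**
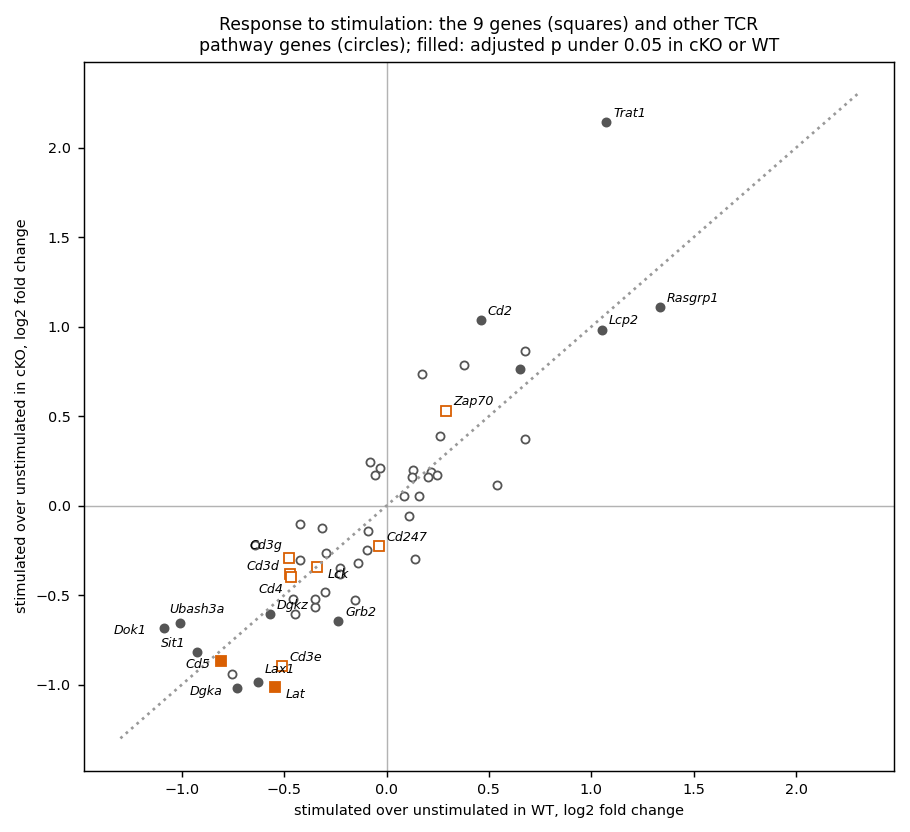
log2 fold change of stimulated over unstimulated Treg in WT (x axis) and cKO (y axis) for the 9 genes (squares) and the 47 other TCR pathway genes (circles); filled symbols have an adjusted p under 0.05 in either genotype, and the dotted line marks equal values. Lat and Cd5 lie low in both genotypes, at -1.02 and -0.87 in cKO, while Lcp2 (0.98) and Trat1 (2.14) lie high.

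The B cell receptor uses the counterpart machinery, with CD79 chains in place of CD3 and the kinase SYK in place of ZAP70, and of its 8 listed genes 2 of the 7 tested were called lower in cKO in vivo, 1 higher in stimulated and 3 higher in unstimulated cKO cultures. Of all genes, 0.374%, 0.0187% and 0.0747% were called in these comparisons. In vivo, Cd79a was at 5.52 and 6.97 FPKM in cKO, against 17.55 and 26.1 FPKM in WT (log2 fold change -1.64, SE 0.20, adjusted p = 0.0400 with limma). In unstimulated cultures Cd79b was at 66.9 and 71.5 FPKM in cKO, against 13.1 and 10.3 FPKM in WT (2.47, SE 0.17, adjusted p = 0.00542), and Cd79a and Syk were higher too (2.50, SE 0.25, and 2.19, SE 0.22, adjusted p = 0.0189 each). In stimulated cultures Cd79b was higher in cKO (1.89, SE 0.17, adjusted p = 0.0379). The ratio of Syk to Zap70 was 0.0865 and 0.128 in stimulated cKO, against 0.0235 and 0.0255 in stimulated WT, and 0.151 and 0.143 in unstimulated cKO, against 0.0216 and 0.0174 in unstimulated WT. In vivo it was 0.0232 and 0.0313 in cKO, against 0.0539 and 0.0516 in WT.

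Over the 8 culture libraries the likeness of a gene to the CD3 chains was measured as the root mean square distance of its log2(FPKM + 1) deviations from the mean deviation of the 4 CD3 genes, which are themselves part of that mean. For these 4 it was 0.0977 for Cd3d, 0.180 for Cd3g, 0.1997 for Cd247 and 0.2245 for Cd3e. For the others it was 0.118 for Lck, 0.123 for Cd4, 0.288 for Cd5, 0.334 for Lat and 0.442 for Zap70. All but Lat and Zap70 lay below the median of 0.325 over 7816 other genes, and Cd3d lay below their 1st percentile of 0.117. Of the genes that are no members, Csk was nearest at 0.0588, and Tmub1 (0.0612), Fbh1 (0.0615) and Fam118a (0.0684) were among the 5 nearest. Csk encodes the kinase that holds LCK inactive. It was at 69.8 and 67.1 FPKM in stimulated cKO, against 101 and 102.49 FPKM in unstimulated cKO, and at 68.4 and 68.3 FPKM in stimulated WT, against 102 and 74.9 FPKM in unstimulated WT. The 8 points share the same libraries and scale, and the likeness is a description with no test.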

How the data were processed

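The authors deposited FPKM in 1 table for the 4 in vivo libraries and 1 for the 8 in vitro libraries. Per the submitters' processing notes, the tools were HISAT2 2.2.1 and StringTie 2.1.1 and the builds mm10 and hg19; their roles, the annotation and filters are not given in the sources used here. Read depth is unknown, so no counting error is given. The in vivo columns carry a genotype but no replicate number, so first and second library follow the table's order. A further 4 per-sample columns of the in vitro table matched no sample and were left out. In vivo Entrez numbers were matched to symbols through RefSeq (16196 of 16232).

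Each table was fitted apart with limma 3.58.1 in R 4.3.3 on log2(FPKM + 1) (two-sided, eBayes with trend). Genes needed a mean of 1 FPKM or more (10415 in vivo, 10710 in vitro). P-values were adjusted by Benjamini-Hochberg over all of these, with calls at an adjusted p under 0.05. The 8 in vitro libraries shared 1 model of 4 groups. The pseudocount understates fold changes of low genes. The steps were tested on simulated data. All adjusted p-values are limma's.

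The members, lists and tests were chosen with earlier results of these data known. Of the other TCR pathway and B cell receptor lists, up to 6 called genes a comparison are named by smallest adjusted p, or 2 that did not pass; genes outside this rule (Dgkz, Grb2, Lax1, and Sit1 and Ubash3a in cKO) were named after their values were seen. Some genes that met these rules are not reported here. Likeness was measured on genes averaging 5 FPKM or more. Alternatives were a pseudocount of 0.1, no filter or a floor of 5 FPKM, 4 rescalings, no trend, a replicate block, only the samples compared, and libraries left out. Coordinates are GENCODE's on GRCm38; promoters are RefSeq's.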

Additional observations from a re-analysis of the deposited data

Results flagged for a closer look

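Cd4 met the condition that 2 settings move in opposite directions with no overlap. Its cKO over WT log2 fold change was -0.20 in vivo, where both cKO libraries lay below both WT libraries, and 0.25 in stimulated cultures, where both cKO libraries lay above both WT libraries. Neither passed limma's adjusted test. The difference was not tested, since the settings are in tables that were normalized separately. Taken alone and in either direction, the genotypes did not overlap for 47.3% of 10415 genes in vivo. In stimulated cultures they did not overlap for 48.3% of 10710 genes.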

How the results depend on the processing

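No member was called between the genotypes in culture, for stimulation in WT or for the interaction under any alternative run. In vivo, leaving out 1 library gave 0 to 5 members called and 0 to 22 other pathway genes, where 17 to 1994 of all genes were called, against 39 with no library left out. For stimulation in cKO, 0 members were called with no filter, 1 with median-of-ratios scaling, 1 with a common sum, 0 without trend and 0 without both cKO replicate 1 libraries, and 0 to 3 on leaving out 1 library. Of the other pathway genes, 11 in cKO became 3 with no filter, 7 with a common sum, 7 with haemoglobin genes removed, 1 without trend, 17 with only the samples compared, 0 without both cKO replicate 1 libraries, 17 without the WT replicate 2 pair, and 0 to 12 on leaving out 1 library. Where 17 were called, 1918 of 10850 genes (only the samples compared) and 1932 of 10817 genes (without the WT replicate 2 pair) were called over all, against 490 of 10710. The 6 in WT became 2 with no filter, 3 without trend, 0 with only the samples compared, 0 without both cKO replicate 1 libraries, 3 without the WT replicate 2 pair, and 0 to 6 on leaving out 1 library. The settings for these pathway counts were added after seeing the data. Over all genes, 490 of 10710 called for stimulation in cKO became 185 of 17257 with no filter and 207 of 10710 without trend. They became 464 of 10697 with median-of-ratios scaling, 395 of 10709 with a common sum and 444 of 10705 with haemoglobin genes removed. In WT, 260 of 10710 genes became 92 of 17257 with no filter, 157 without trend and 34 of 10497 with only the samples compared. With haemoglobin genes removed and a common sum, the mean CD3 sum was 577 FPKM in unstimulated cKO, against 594 as deposited. In stimulated cKO it was 465 FPKM, against 440 as deposited. In unstimulated WT it was 531 FPKM, against 565, and in stimulated WT 451 FPKM, against 437. The WT libraries were then at 443.5 and 459 FPKM stimulated, against 586 and 476 FPKM unstimulated. Of the log2 fold changes of cKO over WT unstimulated, those of Cd3d (-0.10), Cd3e (-0.24), Cd3g (-0.30) and Cd4 (-0.0322) reversed without both WT replicate 2 libraries, and that of Lat (0.0285) without both cKO replicate 1 libraries; Zap70 stimulated reversed to -0.18 without those cKO libraries. Leaving out 1 library gave ranges of -0.10 to 0.34 for Cd3d, -0.24 to 0.45 for Cd3e, -0.30 to 0.38 for Cd3g, -0.0322 to 0.39 for Cd4 and -0.39 to 0.0285 for Lat unstimulated, -0.18 to 0.30 for Zap70 stimulated and -0.31 to 0.0225 for Lck in vivo. The cause was not tested.

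Deviations of libraries with the same replicate number correlated at 0.42 between the cKO culture groups and 0.24 between the WT ones, but at -0.14 between the unstimulated genotypes, over 10710 genes, and 2 numbers cannot show pairing. With the replicate number as a block, members called were 0 unstimulated, 0 stimulated and 0 for stimulation in WT. They were 2 for stimulation in cKO and 0 for the interaction. Of all 10710 genes, 8 were called unstimulated, 0 stimulated, 288 for stimulation in WT, 449 for stimulation in cKO and 0 for the interaction. For stimulation in cKO, Cd5 left (limma adjusted p = 0.0514) and Cd3e entered (adjusted p = 0.0475) the calls. With crossed numbers, added after seeing the data, 0 members were called unstimulated, against 14 of 10710 genes. The in vivo columns carry no number, so no block was fitted there. Unknown depth and 2 libraries a group limit every value.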
